A study of Mus musculus with 6 samples.

Results

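Cells make cholesterol from acetyl-CoA through the mevalonate pathway, and the transcription factor SREBP2 turns on most of the enzymes. The genes described here are 26 mouse genes of that system: enzymes of each stage of synthesis, SREBP2 (gene Srebf2) with the proteins that hold or release it, and a pair of genes for sterol transport and storage. They were chosen by name, with no measured value in the rule, though with earlier results of these data known. A gene was read from its brightest probe set over the arrays. Of the 26 genes, 24 had a row among the 19938 genes tested, while Acat2 and Soat1 were not analysed here.

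The cells were RW4, a line of mouse embryonic stem cells, grown on gelatin in serum with leukemia inhibitory factor. Total RNA was hybridised to 6 single-colour Affymetrix arrays in 3 groups of 2. The untreated cells received no drug and are labelled WT for the induction system. The 4OHT group received 1 µM 4-hydroxytamoxifen, the active metabolite of tamoxifen, and is labelled for an induction system based on ERT2, a mutated estrogen receptor domain. The Shld1 group received 1 µM Shld1, a synthetic compound that protects from degradation any protein carrying an unstable version of FKBP, and is labelled for that system. Whether any of the cells carried such a fusion and how long the drugs were given are not stated in the sources used here. The arrays of a group are called duplicates without a statement that they came from separate cultures, so the p-values below reflect only how far these samples scatter, and that scatter may be technical.

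SREBP2 is made as a membrane protein of the endoplasmic reticulum, bound to the escort protein SCAP. When membrane sterol is high, INSIG proteins hold the SCAP and SREBP2 complex there. When sterol is low, the complex moves to the Golgi, where proteases free the part of SREBP2 that enters the nucleus and binds sterol regulatory elements in promoters, often beside sites for NF-Y and Sp1. Tamoxifen and its metabolites are known to bind, besides estrogen receptors, the sterol isomerase EBP and DHCR7, both enzymes of the late pathway.

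Promoter sequences were looked at because most members are known as SREBP2 targets. RefSeq promoters of build GRCm38.p6, each running from 250 bases before to 50 bases after a start site, were found for 20 of the 24 measured members and for 15614 of the genes tested. Both strands were searched for TCACNCCAC, a form of the sterol regulatory element, for its looser form TCACNCCAN, for the NF-Y box CCAAT and for the GC box GGGCGG bound by Sp1. Every match to the first motif is also a match to the second, and the second can share its last letters with a CCAAT box. The 3 members with a match to TCACNCCAN are printed 5′ to 3′ on the gene's strand, since each holds such a match together with a CCAAT box. Only Hmgcs1 among them also matched TCACNCCAC. Capitals mark the matches to TCACNCCAN and to CCAAT, the latter written ATTGG where it lies on the other strand. Hmgcs1 lies at chr13:119690101-119690400 on the plus strand, Msmo1 at chr8:64733529-64733828 on the minus strand and Srebf2 at chr15:82147019-82147318 on the plus strand.
Hmgcs1: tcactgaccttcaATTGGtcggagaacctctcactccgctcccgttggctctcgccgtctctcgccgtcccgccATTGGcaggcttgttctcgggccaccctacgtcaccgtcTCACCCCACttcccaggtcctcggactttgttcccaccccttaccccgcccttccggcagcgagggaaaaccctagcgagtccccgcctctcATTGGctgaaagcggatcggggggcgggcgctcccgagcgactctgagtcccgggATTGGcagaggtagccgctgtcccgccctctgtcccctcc
Msmo1: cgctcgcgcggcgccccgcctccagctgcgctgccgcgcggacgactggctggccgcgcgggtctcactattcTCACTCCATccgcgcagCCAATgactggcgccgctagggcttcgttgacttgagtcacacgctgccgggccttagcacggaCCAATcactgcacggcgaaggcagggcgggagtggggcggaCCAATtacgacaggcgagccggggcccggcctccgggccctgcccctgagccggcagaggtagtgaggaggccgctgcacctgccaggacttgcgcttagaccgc
Srebf2: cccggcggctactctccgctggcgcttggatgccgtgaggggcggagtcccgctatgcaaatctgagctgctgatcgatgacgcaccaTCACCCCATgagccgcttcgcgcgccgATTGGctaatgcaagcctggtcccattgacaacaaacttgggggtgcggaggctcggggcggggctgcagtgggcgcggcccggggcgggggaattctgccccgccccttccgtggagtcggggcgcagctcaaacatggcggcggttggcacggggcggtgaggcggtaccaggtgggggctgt
The element in the Hmgcs1 promoter, TCACCCCAC, begins at position -137 from the start site, with 4 CCAAT boxes around it. In Msmo1 the match TCACTCCAT begins at -177 with 3 CCAAT boxes, and in Srebf2 the match TCACCCCAT begins at -162 with 1 CCAAT box.

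Of the 20 members with a promoter, 1 (5.0%) held TCACNCCAC, against 1.40% of the genes tested that had a promoter. The looser form was held by 3 members (15.0%), against 4.59% of the genes. A CCAAT box was held by 19 members (95%), all but Scap, against 41.7% of the genes, and a GC box by 18 (90.0%), against 52.9%. The shares of genes take in all those tested with a promoter, whatever their signal, while every measured member was above background. Shares among genes above background alone were not computed. A match here is a description of the letters in this window and says nothing of binding.

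Every measured member was above background. The level taken for background was a log2 signal of 3.71, the 95th percentile of 1027 olfactory receptor genes, and the lowest member value on any array was 4.95, that of Ebp. The 10 pluripotency markers checked were all above that level, with list means of 9.21 to 9.43 over the arrays. Markers of other cells were above it for 6 of 10 fibroblast genes, 6 of 8 endoderm genes, 4 of 6 neural genes and 3 of 5 mesoderm genes, so the labelled cell type was not checked by their absence. Over the arrays their list means ran from 3.99 to 4.21 for fibroblasts, 4.69 to 4.89 for endoderm, 4.97 to 5.11 for neural cells and 3.82 to 4.04 for mesoderm; levels of different probe sets are not compared. At or below background were Lum, Dcn, Postn and Col6a3 for fibroblasts, Afp and Ttr for endoderm, Nes and Neurog2 for neural cells, and Mesp1 and Kdr for mesoderm. A narrower range of deposited signals was seen on 4OHT replicate 1 and on Shld1 replicate 2, with SDs of 2.29 and 2.24 over all probe sets, against 2.33 to 2.35 on the other arrays.

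The first question was how these genes stood after 4OHT. With 4OHT, 22 of the 24 members were lower than in untreated cells and 2, Ebp and Insig2, were higher. The median difference was -0.29 on the log2 scale, which is 81.9% of the untreated signal, and member differences ran from -0.59 to 0.21. Over all genes tested the median difference was -0.01 and 52.2% were lower; among the 12841 genes above background the median was -0.04 and 58.7% were lower. Every stage had a negative median, with values of -0.25 for the early mevalonate steps, -0.49 for the isoprenoid steps, -0.28 for squalene and ring closure, -0.28 for lanosterol to cholesterol and -0.18 for SREBP2 and its control.

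No member passed the test after adjustment over all genes. With limma and Benjamini-Hochberg adjustment, 0 of the 24 members and 0 of the 19938 genes (0%) were called, and the members' adjusted p ran from 0.960 to 0.996. At an unadjusted p under 0.05 in the same fit, 10 members were lower, a share to be read against 2.42% of all genes, and 0 were higher, against 2.57%. The 10 were Mvd, Idi1, Fdps, Ggps1, Lss, Msmo1, Hsd17b7, Sc5d, Dhcr7 and Insig1. That count depended on single arrays: it was 0 without 4OHT replicate 1, 1 without untreated replicate 2, 3 without untreated replicate 1 and 10 without 4OHT replicate 2, with shares of all genes lower at that p of 1.24%, 1.25%, 1.34% and 3.85%. Each of these fits has fewer arrays than the full one. Both 4OHT arrays lay below both untreated arrays for 21 members, against 20.4% of all genes and 24.7% of those above background. They lay above them for 1 member, Ebp, against 17.3% of all genes. With 2 arrays a group the median standard error of a member's difference was 0.15 and its 95% interval reached 0.34 to either side. An exact permutation test of 2 arrays against 2 cannot go below 0.333, so none was used.

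**Figure D1:**
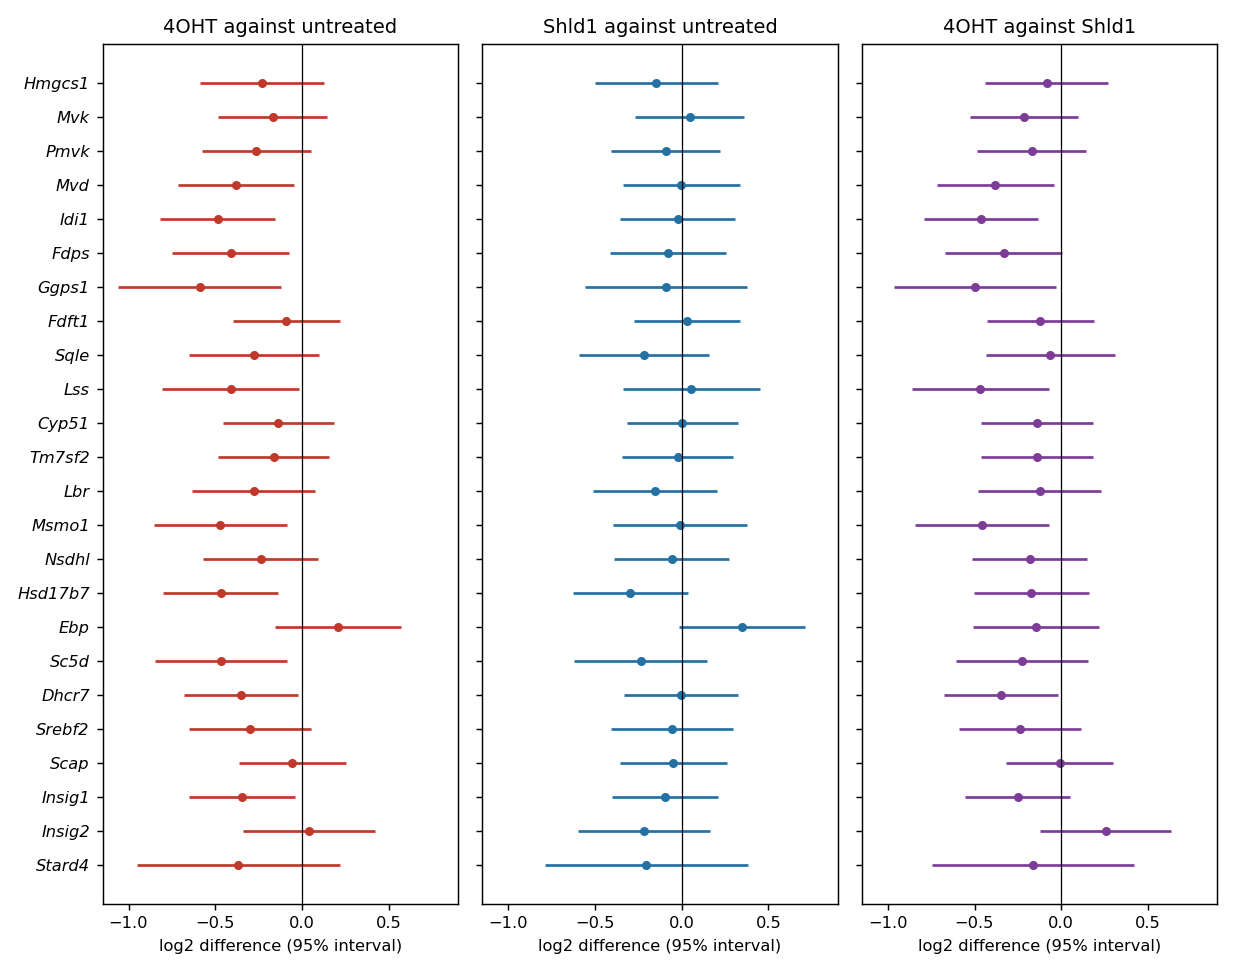
Log2 difference of each of the 24 members with its 95% interval from limma (horizontal axis), 1 panel per comparison, n = 2 arrays per group. In 4OHT against untreated 22 points lie left of 0, in Shld1 against untreated 19 and in 4OHT against Shld1 23, and no member passed the adjusted test.

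The early steps turn acetyl-CoA units into mevalonate and then isopentenyl diphosphate. Mvd, the decarboxylase that closes this stage, read 6.38 and 6.28 on the untreated arrays, 5.96 and 5.94 with 4OHT and 6.47 and 6.19 with Shld1. Both 4OHT arrays were the lowest of the 6, and the difference from untreated was -0.38 (SE 0.15, 76.8% of untreated; limma, adjusted p = 0.960). Pmvk, phosphomevalonate kinase, read 6.34 and 6.32 untreated, 6.02 and 6.12 with 4OHT and 6.31 and 6.17 with Shld1. Its 4OHT arrays were also the lowest, closely followed by Shld1 replicate 2, and it differed by -0.26 (SE 0.14). Mvk, mevalonate kinase, had a smaller difference of -0.17 (SE 0.14), again with both 4OHT arrays lowest. Hmgcs1, the cytosolic HMG-CoA synthase whose promoter carried the full element, read 8.46 and 8.54 untreated, 8.09 and 8.45 with 4OHT and 8.33 and 8.38 with Shld1. The 4OHT arrays were below the untreated ones but spread around the Shld1 arrays, and the difference of -0.23 (SE 0.16) rested mostly on 4OHT replicate 1.

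The isoprenoid steps held the most negative stage median. Idi1, the isomerase of isopentenyl diphosphate, read 7.60 and 7.75 untreated, 7.08 and 7.29 with 4OHT and 7.67 and 7.64 with Shld1. The 4OHT arrays stood clear below all others, with a difference of -0.49 (SE 0.15, 71.4% of untreated) and the smallest unadjusted p of the members, 0.00838 (limma, adjusted p = 0.960). A second probe set annotated to Idi1 gave -0.49 as well. Both are annotated with the same transcripts, and the locus of the brighter one was not checked, so whether they are independent is not known here. Fdps, farnesyl diphosphate synthase, read 7.81 and 7.92 untreated, 7.33 and 7.58 with 4OHT and 7.74 and 7.84 with Shld1. It too was lowest on both 4OHT arrays, with a difference of -0.41 (SE 0.15, 75.2% of untreated). Ggps1 makes geranylgeranyl diphosphate, a lipid anchor for small GTPases, and so lies on a side branch. It read 6.07 and 6.32 untreated, 5.51 and 5.70 with 4OHT and 6.42 and 5.79 with Shld1. The 4OHT values were the lowest, with Shld1 replicate 2 next to them and Shld1 replicate 1 the highest of the 6, and the difference from untreated was -0.59 (SE 0.21, 66.4% of untreated), the most negative of the members.

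The next enzymes commit carbon to sterol and close the rings. Lss, lanosterol synthase, read 6.21 and 6.04 untreated, 5.61 and 5.82 with 4OHT and 6.39 and 5.97 with Shld1. Both 4OHT arrays were the lowest, and the difference from untreated was -0.41 (SE 0.18, 75.2% of untreated). Sqle, squalene epoxidase, read 7.25 and 7.45 untreated, 6.90 and 7.24 with 4OHT and 7.23 and 7.03 with Shld1. Its 4OHT replicate 2 was only just below untreated replicate 1 and its Shld1 arrays lay between the 4OHT arrays. It differed from untreated by -0.28 (SE 0.17) with 4OHT and by -0.22 (SE 0.17) with Shld1. Fdft1, squalene synthase, was nearly level, at 7.72 and 7.80 untreated, 7.66 and 7.69 with 4OHT and 7.82 and 7.76 with Shld1. Its 4OHT arrays were the lowest of the 6, yet the difference was -0.09 (SE 0.14), and a second probe set gave -0.07.

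From lanosterol to cholesterol, 8 of the 9 enzymes were lower with 4OHT, against 52.2% of all genes and 58.7% of those above background. At an unadjusted p under 0.05 in limma 4 of them were lower, against 2.42% of all genes. As given above, the count of members at that p depended on single arrays. Msmo1, the methyl sterol oxidase, read 7.89 and 7.94 untreated, 7.30 and 7.58 with 4OHT and 8.09 and 7.71 with Shld1. The 4OHT arrays lay below the rest, with a difference of -0.47 (SE 0.17, 72.2% of untreated). Hsd17b7, a sterol ketone reductase, read 6.22 and 6.13 untreated, 5.61 and 5.80 with 4OHT and 5.96 and 5.79 with Shld1. Here the untreated arrays were the highest of the 6, and Shld1 replicate 2 was level with 4OHT replicate 2. The difference from untreated was -0.47 (SE 0.15) with 4OHT and -0.30 (SE 0.15) with Shld1. Sc5d, which introduces the ring double bond before the DHCR7 step, read 6.43 and 6.50 untreated, 5.78 and 6.22 with 4OHT and 6.28 and 6.17 with Shld1. Again both untreated arrays were the highest, and the difference of -0.47 (SE 0.17) drew on a wide gap between the 4OHT arrays.

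Dhcr7, the reductase that makes cholesterol from its direct precursor, read 6.87 and 6.94 untreated, 6.44 and 6.67 with 4OHT and 6.94 and 6.86 with Shld1. Both 4OHT arrays were below the other 4, which lay close together, and the difference was -0.35 (SE 0.15, 78.3% of untreated). Ebp, the sterol isomerase to which tamoxifen binds, was the exception among the enzymes. It read 5.18 and 4.95 untreated, 5.33 and 5.22 with 4OHT and 5.57 and 5.26 with Shld1. All 4 treated arrays were above both untreated arrays, by 0.21 (SE 0.16) with 4OHT and 0.35 (SE 0.16) with Shld1. The others of this stage differed by -0.28 for Lbr and -0.16 for Tm7sf2, both sterol reductases, by -0.24 for Nsdhl, a sterol dehydrogenase, and by -0.14 for Cyp51, the lanosterol demethylase. The value of Nsdhl was -0.10 without 4OHT replicate 1, and that of Cyp51 was -0.03 without untreated replicate 2 and -0.24 without untreated replicate 1.

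**Figure D2:**
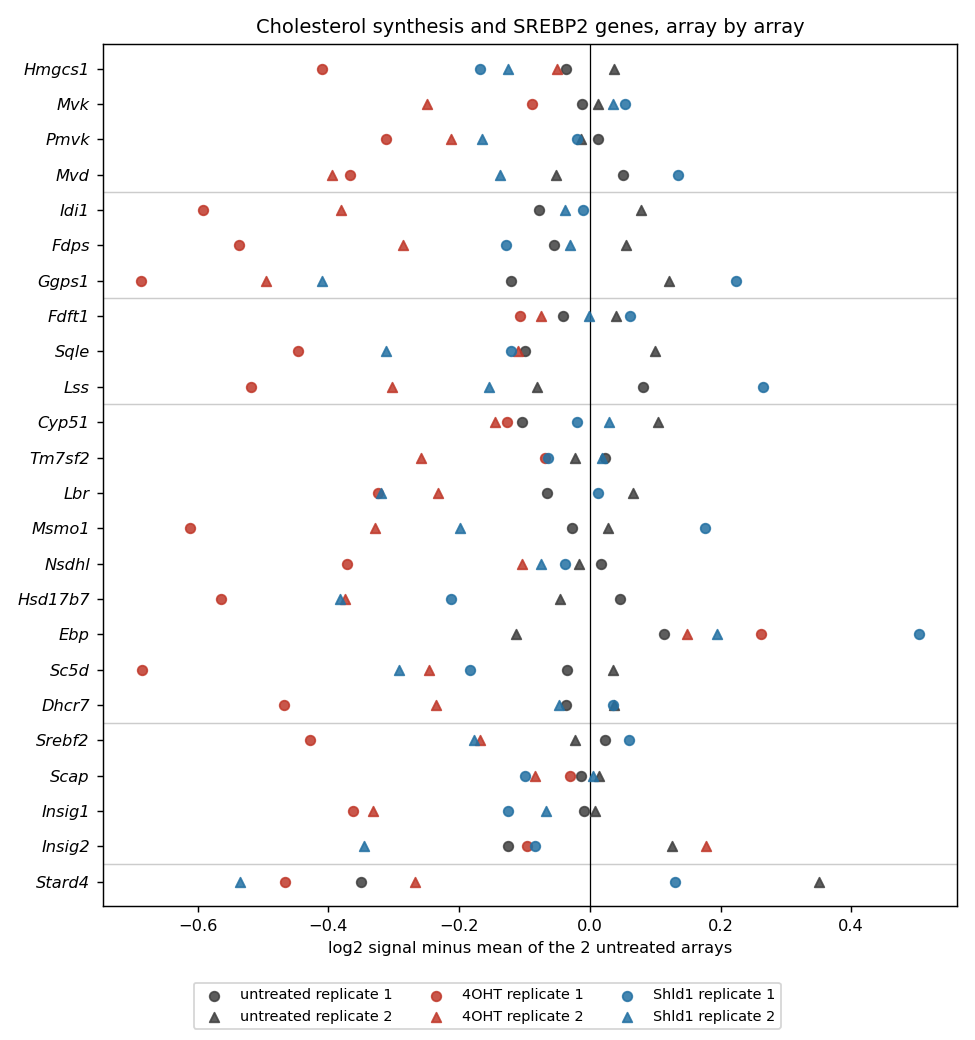
Log2 signal of each member on each of the 6 arrays minus the mean of the 2 untreated arrays (horizontal axis), with genes in order of the pathway and 1 symbol per array. For 14 of the 24 members both red 4OHT symbols lie left of all others; for the other 10 at least 1 other array lies as low as or lower than a 4OHT array.

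Among the regulators, Insig1, which is itself an SREBP target, read 8.40 and 8.41 untreated, 8.04 and 8.07 with 4OHT and 8.28 and 8.34 with Shld1. Its duplicates lay close together, the 4OHT arrays were below all others, and the difference was -0.35 (SE 0.14, 78.6% of untreated; limma, adjusted p = 0.960). Srebf2 read 8.45 and 8.41 untreated, 8.002 and 8.26 with 4OHT and 8.49 and 8.25 with Shld1. The 4OHT arrays were below the untreated ones, but Shld1 replicate 2 was level with 4OHT replicate 2, and the difference was -0.30 (SE 0.16). A row that lists Srebf2 among 4 symbols gave 0.06, and which of the 4 genes it reads is not known here. Scap differed by -0.06 (SE 0.14), and its 6 values lay within 0.11 of each other. Insig2, the second INSIG gene, overlapped between groups at 5.9996 and 6.25 untreated, 6.03 and 6.30 with 4OHT and 6.04 and 5.78 with Shld1. Stard4, which carries cholesterol between membranes, differed by -0.37 (SE 0.26), but its untreated arrays read 5.71 and 6.41 and the 4OHT values of 5.59 and 5.79 overlapped them.

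Array by array, the median member stood at -0.39 from the untreated mean on 4OHT replicate 1 and at -0.24 on 4OHT replicate 2, with 23 and 22 members below it. The corresponding values were -0.03 and 0.03 on the untreated arrays, -0.01 on Shld1 replicate 1 and -0.13 on Shld1 replicate 2. Over all genes the same medians lay between -0.02 and 0.0002. The lowest of the 6 values fell on 4OHT replicate 1 for 16 members and on 4OHT replicate 2 for 4. Both 4OHT arrays were below all 4 other arrays for 14 members, against 7.70% of all genes. They were Mvk, Pmvk, Mvd, Idi1, Fdps, Ggps1, Fdft1, Lss, Cyp51, Tm7sf2, Msmo1, Nsdhl, Dhcr7 and Insig1, which cover every stage of synthesis.

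The size of the difference depended on the array. Each 4OHT array set against each untreated array gave a median member difference of -0.36, -0.40, -0.21 and -0.26, while within a group (replicate 2 minus replicate 1) it was 0.06 untreated, 0.19 with 4OHT and -0.13 with Shld1. The arrays of narrower signal range, 4OHT replicate 1 and Shld1 replicate 2, were the lower of their pairs. With both left out, the median was -0.24 for 4OHT against untreated, with 22 members lower. Leaving out each array in turn moved the difference of 13 members by over 1.5 times, namely Hmgcs1, Mvk, Fdft1, Sqle, Cyp51, Tm7sf2, Nsdhl, Ebp, Sc5d, Srebf2, Scap, Insig2 and Stard4. Stard4 ranged most widely, from -0.72 without untreated replicate 1 to -0.02 without untreated replicate 2, and Insig2 was the only member whose sign turned. The other 11 moved less, among them Insig1, from -0.36 to -0.33, and Idi1, from -0.59 to -0.38. In bulk RNA, fewer cells of a type and less RNA per cell cannot be told apart. The marker lists of other cell types differed by medians of 0.13 for fibroblasts, 0.09 for endoderm, -0.06 for neural cells and 0.06 for mesoderm between 4OHT and untreated, and their part in the members' values was not tested.

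**Figure D3:**
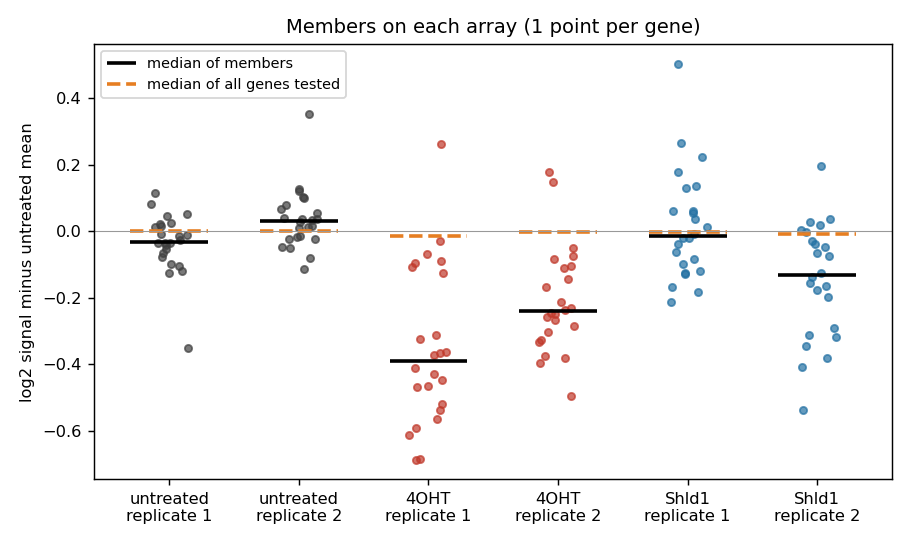
Log2 signal of the 24 members minus the untreated mean (vertical axis) on each of the 6 arrays, with 1 point per gene, a solid line at the members' median and a dashed line at the median of all genes tested. The members' median is at -0.39 and -0.24 on the 4OHT arrays and between -0.13 and 0.03 on the other 4.

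The second question was how the same genes stood after Shld1. With Shld1, 19 members were lower than untreated and 5 higher, with a median difference of -0.06 (96.1% of the untreated signal) and a range from -0.30 to 0.35. Over all genes 51.1% were lower, and among those above background 58.0% were lower, with a median of -0.03. In limma 0 members and 0 of all genes (0%) were called, with adjusted p = 0.9995 for every member. At an unadjusted p under 0.05, 0 members were lower, against 1.94% of all genes, and 0 were higher, against 2.41%. Both Shld1 arrays were below both untreated arrays for 7 members, against 17.3% of all genes and 20.7% of those above background. They were above them for 2, Mvk and Ebp, against 15.2% of all genes. The 2 largest differences were those of Ebp, already given, with a 95% interval from -0.01 to 0.71, and Hsd17b7, with an interval from -0.63 to 0.03.

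Most members of the Shld1 group stayed near the untreated level, within what 2 arrays can resolve. Mvd, Idi1, Msmo1, Dhcr7, Cyp51 and Tm7sf2 differed from untreated by no more than 0.02 in size after rounding, and the interval for Idi1 ran from -0.35 to 0.31. The count of members lower depended on Shld1 replicate 2. Without that array 13 of the 24 were lower and the median was -0.01, and quantile normalization also left 13 lower.

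The agents were then compared with each other at their shared dose of 1 µM; the comparisons of each with untreated cells share the untreated arrays. With 4OHT, 23 members were lower than with Shld1 and 1, Insig2, was higher by 0.26 (SE 0.17). The median difference was -0.18 (88.5% of the Shld1 signal), with a range from -0.50 to 0.26, and the median of all genes was -0.004, with 50.9% lower. In limma 0 members and 0 of all genes (0%) were called, with the members' adjusted p between 0.871 and 0.996. At an unadjusted p under 0.05, 6 members were lower, against 3.10% of all genes, and 0 higher, against 2.50%. The count of 6 depended on single arrays: it was lowest without 4OHT replicate 1 and next without Shld1 replicate 1, in fits with fewer arrays. Leaving out each array in turn moved the difference of 20 of the 24 members by over 1.5 times. Ggps1 ranged from -0.815 without Shld1 replicate 2 to -0.18 without Shld1 replicate 1. Idi1 moved less, from -0.57 without 4OHT replicate 2 to -0.36 without 4OHT replicate 1. Both 4OHT arrays were below both Shld1 arrays for 14 members, against 15.6% of all genes, and above them for 0, against 14.9%.

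The 6 were Ggps1 at -0.50 (SE 0.21), Lss at -0.47 (SE 0.18), Idi1 at -0.46 (SE 0.15), Msmo1 at -0.46 (SE 0.17), Mvd at -0.38 (SE 0.15) and Dhcr7 at -0.35 (SE 0.15). Both comparisons of 4OHT use the same 4OHT arrays. The isoprenoid steps again had the most negative stage median, -0.46, followed by the early mevalonate steps at -0.19 and lanosterol to cholesterol at -0.17. Sc5d and Hsd17b7, which were also below untreated with Shld1, differed between the agents by -0.23 (SE 0.17) and -0.17 (SE 0.15). For Srebf2 the difference between the agents was -0.24 (SE 0.16), and averaging its 2 rows turned it to 0.04. The gap between the agents ran with the array: Shld1 minus 4OHT had a median of 0.34 and 0.21 for Shld1 replicates 1 and 2 against 4OHT replicate 1, and of 0.20 and 0.08 against 4OHT replicate 2.

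Genes next to the pathway were read from lists chosen by function, also with earlier results of these data known. None of these lists had a gene that passed limma's adjusted test in any comparison. Of the other enzymes and electron donors, 6 of 9 were measured and 4 were lower with 4OHT than untreated, with a median of -0.03. Cyb5b, a membrane cytochrome, differed by 0.15 (SE 0.14), Acat1, the mitochondrial thiolase, by -0.24 (SE 0.23) and Cyb5r3, the reductase that serves such cytochromes, by 0.06 (SE 0.14). Of the other genes of sterol sensing, 3 of the 8 measured among 12 were lower and the median was 0.02. In that list Srebf1, which encodes the SREBP of fatty acid synthesis, differed by 0.21 (SE 0.16). Syvn1, a ubiquitin ligase of the endoplasmic reticulum, differed by 0.18 (SE 0.14). Nr1h3, the oxysterol receptor LXR alpha, differed by 0.24 (SE 0.21), but its untreated mean of 3.69 was below the background level and the groups overlapped.

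Users of isoprenoids, such as the protein prenyltransferases, were lower for 10 of 12 genes with 4OHT, with a median of -0.11, and the same count and a median of -0.11 were found with Shld1. Coq2, of ubiquinone synthesis, differed by -0.25 (SE 0.19) with 4OHT, and Fntb and Fnta, the farnesyltransferase subunits, by -0.21 (SE 0.16) and -0.23 (SE 0.21). With Shld1, Pggt1b differed by -0.33 (SE 0.15), Rabggtb by -0.25 (SE 0.14) and Fnta by -0.23 (SE 0.21), all prenyltransferase subunits. These isoprenoid users had the same rounded median with either agent, while the members that make the isoprenoids had medians of -0.49 and -0.08.

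In sterol transport, export and storage 13 of 17 genes were lower with 4OHT and the median was -0.09. Abca1, which exports cholesterol and is an LXR target, went the other way, with 4.87 and 4.96 untreated, 5.81 and 6.03 with 4OHT and 5.16 and 5.02 with Shld1. Its 4OHT arrays stood above all others, by 1.00 (SE 0.15) over untreated with limma's adjusted p = 0.960 and by 0.83 (SE 0.15) over Shld1 with adjusted p = 0.556. Vldlr and Scarb1, lipoprotein receptors, differed from untreated by -0.36 each (SE 0.15 and 0.17). Genes for oxysterol enzymes and for sterol or tamoxifen binding proteins were lower for 7 of 10 with 4OHT, with a median of -0.07. Among them Pgrmc1, a heme protein that binds sterol enzymes, differed by -0.26 (SE 0.17), Tmem97, the sigma-2 receptor, by -0.21 (SE 0.16) and Ephx1, an epoxide hydrolase, by -0.29 (SE 0.23).

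Fatty acid synthesis, the arm run mainly by SREBP1, was lower with 4OHT for 5 of 11 genes, with a median of 0.01. Scd2, a stearoyl-CoA desaturase, read 8.30 and 8.37 untreated, 8.64 and 8.70 with 4OHT and 8.31 and 8.36 with Shld1. Its 4OHT arrays were the highest of the 6, by 0.33 (SE 0.14) over untreated, while Fads2, another desaturase, differed by -0.32 (SE 0.14) and Fasn, the fatty acid synthase, by -0.25 (SE 0.14). None of the 6 neighbouring lists had a 4OHT median as low as any of the 5 member stages, although those medians are descriptions and the difference between lists was not tested.

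In the same lists, Shld1 against untreated gave medians from -0.11 for the isoprenoid users to 0.04 for sterol sensing and for the oxysterol and binding genes. The transport list held Stard3, a sterol transfer protein of endosomes, at -0.38 (SE 0.26), Npc2, which hands cholesterol out of lysosomes, at -0.22 (SE 0.18) and Abca1 at 0.17 (SE 0.15). Among the other enzymes and donors, Cyb5a differed by 0.26 (SE 0.15), Acat1 by -0.29 (SE 0.23) and Acly, the citrate lyase that supplies acetyl-CoA, by -0.12 (SE 0.14). Sterol sensing genes lay near 0, with Rnf145 at 0.10 (SE 0.14), Erlin1 at 0.12 (SE 0.18) and Erlin2 at -0.12 (SE 0.19). Pgrmc1 stood at 0.23 (SE 0.17), Cyp27a1, a mitochondrial sterol hydroxylase, at 0.15 (SE 0.14) and Cyp39a1, an oxysterol hydroxylase, at -0.14 (SE 0.18). In fatty acid synthesis 9 of 11 genes were lower, among them Scd1 at -0.30 (SE 0.15) and Elovl5, an elongase, at -0.13 (SE 0.15), while the carboxylase gene Acacb stood at 0.16 (SE 0.14).

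Between the agents, the list medians lay between -0.10 and 0.05. Besides Abca1, the genes furthest from 0 were Pgrmc1 at -0.49 (SE 0.17), Scarb1 at -0.41 (SE 0.17), Scd1 at 0.37 (SE 0.15) and Scd2 at 0.34 (SE 0.14), and Stard13 at -0.42 (SE 0.18), which was not above background in either group. Pgrmc1 read 5.71 and 5.73 with 4OHT and 6.35 and 6.07 with Shld1, so that its groups did not overlap, but limma's adjusted p was 0.871. Tmem97 stood at -0.27 (SE 0.16), Cyp27a1 at -0.22 (SE 0.14), Fads2 at -0.21 (SE 0.14) and Cyb5a at -0.27 (SE 0.15). Cyb5r3 and Cyb5b stood at 0.14 and 0.12 (SE 0.14 each), Syvn1 at 0.25 (SE 0.14), Srebf1 at 0.21 (SE 0.16) and Mbtps1, the first protease that cuts SREBPs, at -0.19 (SE 0.16). Of the isoprenoid users, Pggt1b stood at 0.21 (SE 0.15), Rabggtb at 0.15 (SE 0.14) and Trit1, a tRNA isopentenyltransferase, at -0.17 (SE 0.16).

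**Figure D4:**
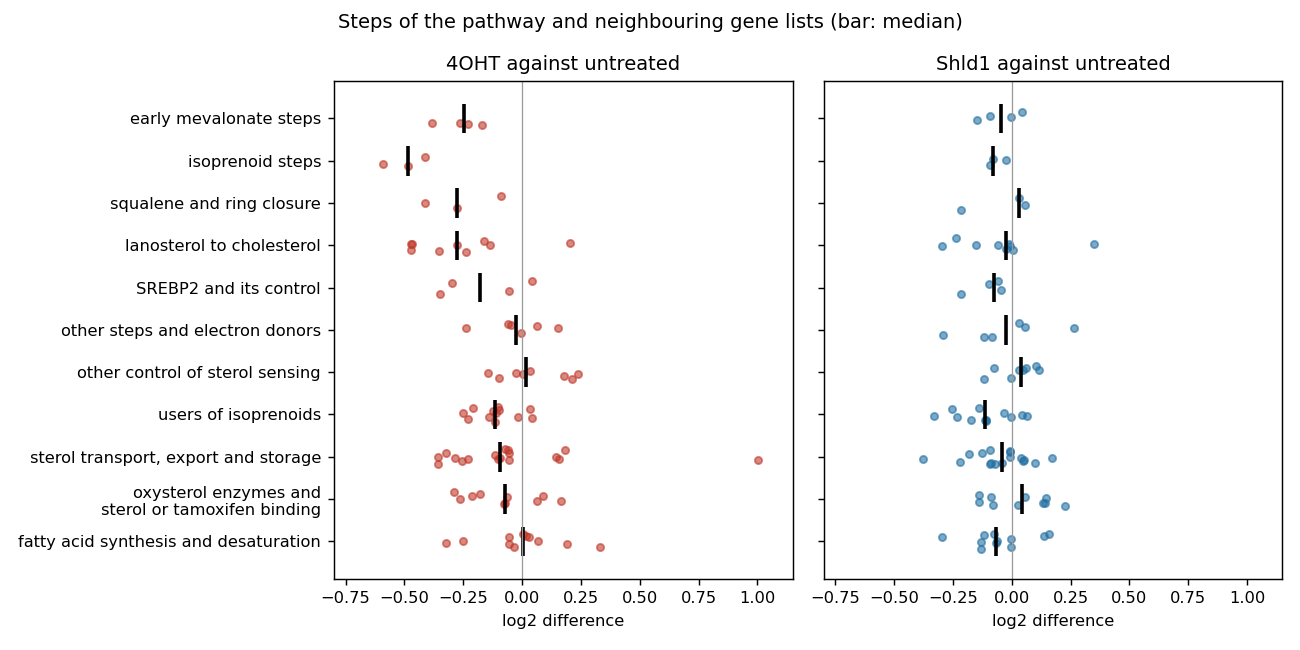
Log2 difference from untreated (horizontal axis) of each measured gene in the 5 stages of the pathway and in 6 neighbouring lists, for 4OHT and for Shld1, with 1 point per gene and a bar at the median. With 4OHT the stage medians lie between -0.49 and -0.18 and the neighbouring lists between -0.11 and 0.02, and the point at 1.00 is Abca1.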

How the data were processed

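RNA from 6 samples of RW4 cells was measured on 6 Affymetrix arrays, 2 per group. The deposited table held 1 value for each of 35556 probe sets and array; the authors' values are log2 signals, judged by their range. Their background correction, summarisation and normalisation are not given in the sources used here; limma 3.14 is named, without its role, per the submitters' processing notes. The values were used as deposited.

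Names came from the platform annotation, in which 21789 rows had 1 symbol, 1621 several and 12146 none, and 21698 of the 21789 matched a current gene record. The brightest probe set stood for a gene, which left 19938 genes; for the members, rows with several symbols were considered too.

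A mean per group was fitted over all 6 arrays with limma 3.58.1 in R 4.3.3 (lmFit and eBayes, 3 residual degrees of freedom plus 6.77 from the moderation). Tests were two-sided, with Benjamini-Hochberg adjustment over all genes and a threshold of 0.05. The number of arrays limits the precision. The fit was also run on simulated data, drawn gene by gene without shifts of whole arrays, and no result above rests on it. The members and the gene lists were chosen with earlier results of these data known. All members are named, and of each neighbouring list up to 3 genes per comparison with the largest moderated statistic. Alternatives covered normalization, the dimmest genes, the choice of probe set, the model and leaving out arrays. Promoters are from RefSeq, build GRCm38.p6.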

Additional observations from a re-analysis of the deposited data

How the results depend on the processing

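In 17 alternatives no member was called in any comparison. For 4OHT against untreated, 22 or 23 of 24 members stayed lower in all of them; the median was -0.25 with quantile normalization, -0.23 with cyclic loess and -0.24 with 75th percentile centring. Leaving out arrays in turn gave medians from -0.39, without 4OHT replicate 2, to -0.24, without 4OHT replicate 1, and between -0.27, without Shld1 replicate 2, and -0.14, without 4OHT replicate 1, for 4OHT against Shld1. With both narrower arrays left out, 4OHT against Shld1 had a median of -0.20 with 20 members lower. Signs of member values turned in 2 of 408 recomputed values for 4OHT against untreated (Insig2), 47 of 408 for Shld1 against untreated (13 members) and 14 of 408 for 4OHT against Shld1 (7 members); the Srebf2 value between the agents was 0.0432 with probe sets averaged, which takes in its row with 4 symbols. Leaving out an array moved the value of 13 of 24 members by over 1.5 times for 4OHT against untreated, 18 for Shld1 against untreated and 20 between the agents. Members lower at an unadjusted p under 0.05 for 4OHT against untreated numbered 10, against 2.42% of all genes. They were fewer with both narrower arrays left out, a fit that leaves single arrays of 4OHT and Shld1. They were fewer still without 4OHT replicate 1 or without either untreated array, fits that also leave a group with a single array. With an intensity trend 1 gene, Snora62, was called between the agents (limma, adjusted p = 0.0304). Genes at an unadjusted p under 0.05 numbered 995 for 4OHT against untreated (518 without untreated replicate 2 to 1634 without 4OHT replicate 2), 866 for Shld1 against untreated (469 with the dimmest 40% left out, where fewer genes were tested, to 2680 without Shld1 replicate 1) and 1117 between the agents (707 without 4OHT replicate 1 to 2270 without Shld1 replicate 1); the cause was not tested. The replicate number is not stated to mark a shared culture or day, and replicate differences correlated across genes at 0.05, -0.08 and -0.19 between groups, so it was not used for pairing; with a replicate block 0 genes were called and the member medians stayed at -0.29, -0.06 and -0.18. With 2 arrays a group, differences well under 0.34 for a single member could not be resolved.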
